A study of Mus musculus with 10 samples.

Results

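The genes described here were Lyve1 and the lymphatic capillary marker genes Reln, Piezo2, Slco2b1, Pcsk6, Mrc1, Ptx3, Tppp3 and Scn3a, which are 9 of the 42558 genes joined across the plate count tables and 9 of the 32285 genes in the droplet matrices. All 9 were measured on all 8 plates and in both droplet libraries. They were chosen by their readout in these cells, most of them because they marked capillary lymphatic endothelial cells (LECs), and Scn3a was listed with its earlier results known. Levels across LEC types are therefore given as a description with no test. Lyve1 and Scn3a may have been chosen for their response to Tie deletion, so their differences are given with a standard error (SE) and no p-value, and the other 7 genes were tested. These 7 were also chosen with earlier results of these data known. Their p-values, and the counts that passed beside the share of all genes, are therefore no independent tests.

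The plates held single LECs sorted from ear skin at P28 as live CD31+ PDPN+ CD45- CD11b- Ter119- cells and sequenced by Smart-seq, with 2 plates for each of 4 groups. All mice on the plates had floxed alleles and were given 62.5 μg of 4-hydroxytamoxifen (4-OHT) as pups between P1 and P5. Tie1fl/fl and Tie1fl/fl,Tie2fl/fl mice were Cre-, and Tie1iΔLEC and Tie1 Tie2iΔLEC mice also carried Prox1-CreERT2, a tamoxifen-activated Cre driven by Prox1 and so active in Prox1-expressing cells other than LECs too. The loss of both receptors is called Tie1/-2 deletion. In the Tie1 strain, replicate 1 of each genotype was labelled female and replicate 2 male, and all other plates were labelled male. The droplet (10x) libraries came from male C57Bl/6j wild-type mice given 20 mg/kg of an Ang2-blocking antibody (Ab) or of control IgG every 3 days from P16 to P21, with 1 library per treatment, and held CD31+ blood endothelial cells (BECs) as well as LECs. The title of the Ang2 Ab library also contains the word control, and its treatment label was used here. The labels do not say how many mice made up a plate or library, so the spread between plates may be technical.

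A total of 3026 of 3048 wells had at least 1000 detected genes, and 2753 of them were kept as LECs, between 313 and 362 per plate. On plates, every cluster not named as another cell type was kept as LECs. This included an unnamed cluster of 18 wells, with Tubb3, Tubb4a and Acta1 as top genes. It also included capillary-like cluster 3, with 311 wells and a low median of 84798 counts. The summed counts of the LECs ran from 66952878 to 103653269 per plate. The plates came in 2 table layouts, 1 plate of each layout per genotype, and a typical well showed more genes in one layout (plate medians of 5779.5 to 6846.5) than in the other (3578 to 4980.0). Within each strain a layout held 1 replicate number, so values for the same replicate number below are also values within a layout. Tie1 was lower by 1.93 (SE 0.26) on the log2 scale in Tie1iΔLEC and by 2.14 (SE 0.26) in Tie1 Tie2iΔLEC plates, and Tek, which encodes Tie2, was lower by 2.85 (SE 0.32) in Tie1 Tie2iΔLEC plates. Values on plates are CPM, the share of the counts summed over wells that a gene took, scaled to a fixed library total, and differences between groups use counts scaled by the trimmed mean of M values (TMM).

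Lymphatic capillaries are blind-ended vessels that take up fluid, macromolecules and immune cells from tissue, and collecting vessels with valves carry the lymph onwards. LYVE1 is a hyaluronan receptor of lymphatic capillary endothelium and is normally low in collecting vessels. Tie1 and Tie2 are receptor tyrosine kinases of endothelial cells, Ang2 is a ligand of Tie2, and Tie1 acts together with Tie2. Of the other genes, Reln encodes the secreted glycoprotein reelin, Piezo2 a mechanically activated cation channel, Slco2b1 an organic anion transporter, Pcsk6 a proprotein convertase, Mrc1 the mannose receptor, Ptx3 a secreted pentraxin, Tppp3 a tubulin-binding protein and Scn3a the pore-forming subunit of a voltage-gated sodium channel.

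In GRCm38 with GENCODE annotation, Lyve1 lies on the minus strand at chr7:110850607-110863239, Slco2b1 at chr7:99657804-99711340 on the minus strand and Pcsk6 at chr7:65861734-66050386 on the plus strand. Reln is at chr5:21884454-22344702, Tppp3 at chr8:105467493-105471526 and Scn3a at chr2:65457118-65567627, all on the minus strand. Mrc1 at chr2:14229392-14332057 and Ptx3 at chr3:66219910-66225805 are on the plus strand. All are protein-coding genes, and the counts cover their exons.

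Promoter windows of 5 of the 9 genes, namely Reln, Pcsk6, Mrc1, Ptx3 and Slco2b1, were taken from the RefSeq promoter table, built on GRCm38.p6. The promoter of Piezo2 was not searched and is not reported here. Each window spans 250 bases before to 50 bases after an annotated start. Both strands were searched for the FOXO core motif GTAAACA. The GATA motif searched was AGATAA, and that of KLF factors was CCACCC. The promoter of Reln, the member closest to Lyve1 across wells (below), at chr5:22344656-22344955 on the minus strand, and that of Pcsk6, at chr7:65861886-65862185 on the plus strand, are shown in lower case with CCACCC in capitals:
Reln: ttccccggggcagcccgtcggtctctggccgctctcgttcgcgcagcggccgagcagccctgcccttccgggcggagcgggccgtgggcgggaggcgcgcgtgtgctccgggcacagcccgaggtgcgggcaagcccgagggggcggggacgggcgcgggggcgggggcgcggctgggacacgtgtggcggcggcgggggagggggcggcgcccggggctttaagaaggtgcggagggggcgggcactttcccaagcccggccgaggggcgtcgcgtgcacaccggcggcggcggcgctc
Pcsk6: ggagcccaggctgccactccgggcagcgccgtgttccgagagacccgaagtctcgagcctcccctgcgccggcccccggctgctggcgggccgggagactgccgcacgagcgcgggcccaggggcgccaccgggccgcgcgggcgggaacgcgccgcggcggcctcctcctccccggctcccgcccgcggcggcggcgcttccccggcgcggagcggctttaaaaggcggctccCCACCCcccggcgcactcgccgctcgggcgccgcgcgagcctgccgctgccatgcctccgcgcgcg
The G and C content was 80.7% in the Reln window and 81.7% in the Pcsk6 window. CCACCC occurred once in the Pcsk6 and once in the Ptx3 window, and 31.5% of all 32851 promoter windows held it. The exact FOXO string GTAAACA, present in 3.65% of all windows, and the GATA string AGATAA, present in 11.2%, were not among the letters of these 7 windows of 5 genes. Other spellings of these sites were not searched.

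In Cre- LECs, Lyve1 was the most abundant of the 9 transcripts per length, and 8 of the 9 were higher in capillary-like than in collector-like and valve-like LECs. LEC types were clusters made without the 9 genes, Tie1 and Tek, and named on Cre- wells only. Each gene was scaled within its plate before clustering, so the type of a well is relative to the other wells of its plate. Reln, Piezo2, Slco2b1, Tppp3 and Pcsk6, together with Dlg1, gave the capillary-like name. A cluster without another name got it when at least 3 of these were at least 1.5-fold above collector-like and valve-like wells. Their higher level there thus follows in large part from the naming rule, whereas Lyve1, Mrc1, Ptx3 and Scn3a were not used for it. The share of all genes that were highest in this class was not counted. As only Cre- wells were used for naming, the rule may favour high levels of the naming genes in Cre- capillary-like wells. It may likewise favour low levels in Cre- wells outside. Its part in differences between Cre- plates and deletion plates within a class was not tested. Per kilobase of exon, the mean level over the 4 Cre- plates was 612 ± 101 CPM (SD, n = 4) for Lyve1 and 273 ± 67.3 CPM for Tppp3. Pcsk6 and Slco2b1 followed at 85.5 ± 5.62 and 84.5 ± 18.1 CPM per kilobase, which differ by less than their spread, and then Reln at 41.8 ± 1.98 CPM. Ptx3 at 18.5 ± 7.43, Piezo2 at 10.6 ± 1.43, Scn3a at 9.88 ± 1.87 and Mrc1 at 8.67 ± 2.97 CPM per kilobase were the lowest, and the last 3 lay within each other's spread.

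Lyve1 in Cre- plates was 2497 ± 269 CPM (SD, n = 4) in capillary-like LECs, 588 ± 243 CPM in collector-like LECs and 403 ± 83.9 CPM in valve-like LECs. The capillary-like plates, at 2403, 2885, 2433 and 2267 CPM, all lay above the collector-like plates, at 581, 748, 247 and 776 CPM, in the order Tie1fl/fl 1 and 2, Tie1fl/fl,Tie2fl/fl 1 and 2. Collector-like and valve-like levels overlapped. Small clusters with proliferation or interferon-response markers were closer to capillary-like LECs, with 2415 ± 1075 and 1795 ± 447 CPM of Lyve1. A set of wells with fibroblast markers was kept out of the LECs and held 2396 ± 307 CPM of Lyve1, a level like that of the capillary-like wells. These wells were shallow, with a median of 18686 counts against 222775 in capillary-like cluster 0. They also held other members, such as Reln at 831 ± 119 CPM and Tppp3 at 576 ± 217 CPM. Whether they held fibroblasts or LECs was not tested, so this is not a level of Lyve1 in fibroblasts.

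Reln had the smallest gap between capillary-like and collector-like LECs after Slco2b1, with 1258 ± 58.1 against 649 ± 84.1 CPM (SD, n = 4), and 366 ± 96.4 CPM in valve-like LECs. Slco2b1 was 643 ± 134 CPM in capillary-like, 375 ± 52.5 CPM in collector-like and 51.7 ± 31.0 CPM in valve-like LECs. Piezo2 was 236 ± 33.2, 103 ± 38.7 and 80.8 ± 30.0 CPM in the same order, Pcsk6 556 ± 55.3, 210 ± 42.4 and 292 ± 51.6 CPM, and Tppp3 657 ± 110, 266 ± 105 and 177 ± 18.3 CPM. The 2 low transcripts followed the same order, with Mrc1 at 70.6 ± 26.4, 30.2 ± 17.1 and 4.54 ± 3.31 CPM and Ptx3 at 66.2 ± 28.5, 12.7 ± 12.8 and 8.38 ± 6.74 CPM. Scn3a stood apart. It was highest in valve-like LECs at 236 ± 76.9 CPM, against 134 ± 32.9 CPM in capillary-like and 28.4 ± 17.7 CPM in collector-like LECs. Proliferating wells exceeded capillary-like wells for Mrc1 at 133 ± 93.1 CPM, Ptx3 at 99.0 ± 56.6 CPM and Tppp3 at 818 ± 427 CPM, all with wide spread.

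The genes whose levels followed Lyve1 most closely from well to well were listed by the mean within-plate Spearman correlation over 1332 LEC wells of the 4 Cre- plates, among 8666 genes. As these points share plate, depth and cell type, the values are descriptive. Gm21541 came first at 0.54, followed by Reln at 0.48, the chemokine gene Ccl21a at 0.46, the adhesion receptor gene Adgrg3 at 0.45, Mmrn1 at 0.42, Enpp3 at 0.42, Tppp3 at 0.40, Slco2b1 at 0.39, Flt4, which encodes VEGFR3, at 0.38 and Piezo2 at 0.37. Pcsk6 ranked 13, Scn3a 69, Ptx3 76 and Mrc1 201. In turn, Lyve1 was the gene closest to Piezo2, Pcsk6, Ptx3 and Tppp3.

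In Tie1 Tie2iΔLEC plates, Lyve1 and Scn3a were higher, Tppp3 was lower, and none of the other 6 genes passed the test. Lyve1 was 1600 and 1618 CPM in the Tie1fl/fl,Tie2fl/fl plates (replicates 1 and 2) and 3905 and 3557 CPM in the Tie1 Tie2iΔLEC plates, a 2.32-fold higher level (log2 1.21, SE 0.21). Scn3a was 126 and 122 CPM in the Cre- plates and 701 and 897 CPM in the Tie1 Tie2iΔLEC plates, which is 6.45-fold higher (log2 2.69, SE 0.25). For both genes the groups did not overlap, and the gap was larger than the spread between plates. Capillary-like wells, where Lyve1 is highest, made up 57.2% and 59.5% of the LECs in the Tie1fl/fl,Tie2fl/fl plates and 75.7% and 78.9% in the Tie1 Tie2iΔLEC plates, and within that class Lyve1 was 1.71-fold higher.

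Tppp3 fell from 441 and 462 CPM to 99.0 and 90.9 CPM, by 2.25 (SE 0.31) on the log2 scale (adjusted p = 0.0132, edgeR quasi-likelihood test). It was the only one of the 7 tested genes to pass, against 1.2% of the 19903 genes in this comparison. The call was lost without any 1 of the 4 plates of this strain, with adjusted p = 0.0794 and 0.0634 without Tie1fl/fl,Tie2fl/fl replicate 1 and 2, and 0.0648 and 0.0916 without Tie1 Tie2iΔLEC replicate 1 and 2. The fold change then stayed between -2.35 and -2.19 on the log2 scale.

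Piezo2 was 216 and 181 CPM in Cre- and 436 and 284 CPM in Tie1 Tie2iΔLEC plates (log2 0.86, SE 0.25, adjusted p = 0.230, edgeR), with no overlap of the groups. Reln was 963 and 990 CPM in Cre- and 845 and 626 CPM in Tie1 Tie2iΔLEC plates (log2 -0.41, adjusted p = 0.555), and Slco2b1 was 533 and 512 against 399 and 284 CPM (log2 -0.61, adjusted p = 0.638). Both groups were apart for these genes as well, but neither passed the test. An exact permutation test of 2 against 2 plates gives such a gap no p below 0.333, here, above and below. The share of all genes with such a gap was not counted. Pcsk6 (log2 -0.09), Mrc1 (log2 -0.02) and Ptx3 (log2 -0.33) had overlapping groups. The median over the 9 genes was -0.09 on the log2 scale, beside 0.00221 over all genes tested.

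**Figure D1:**
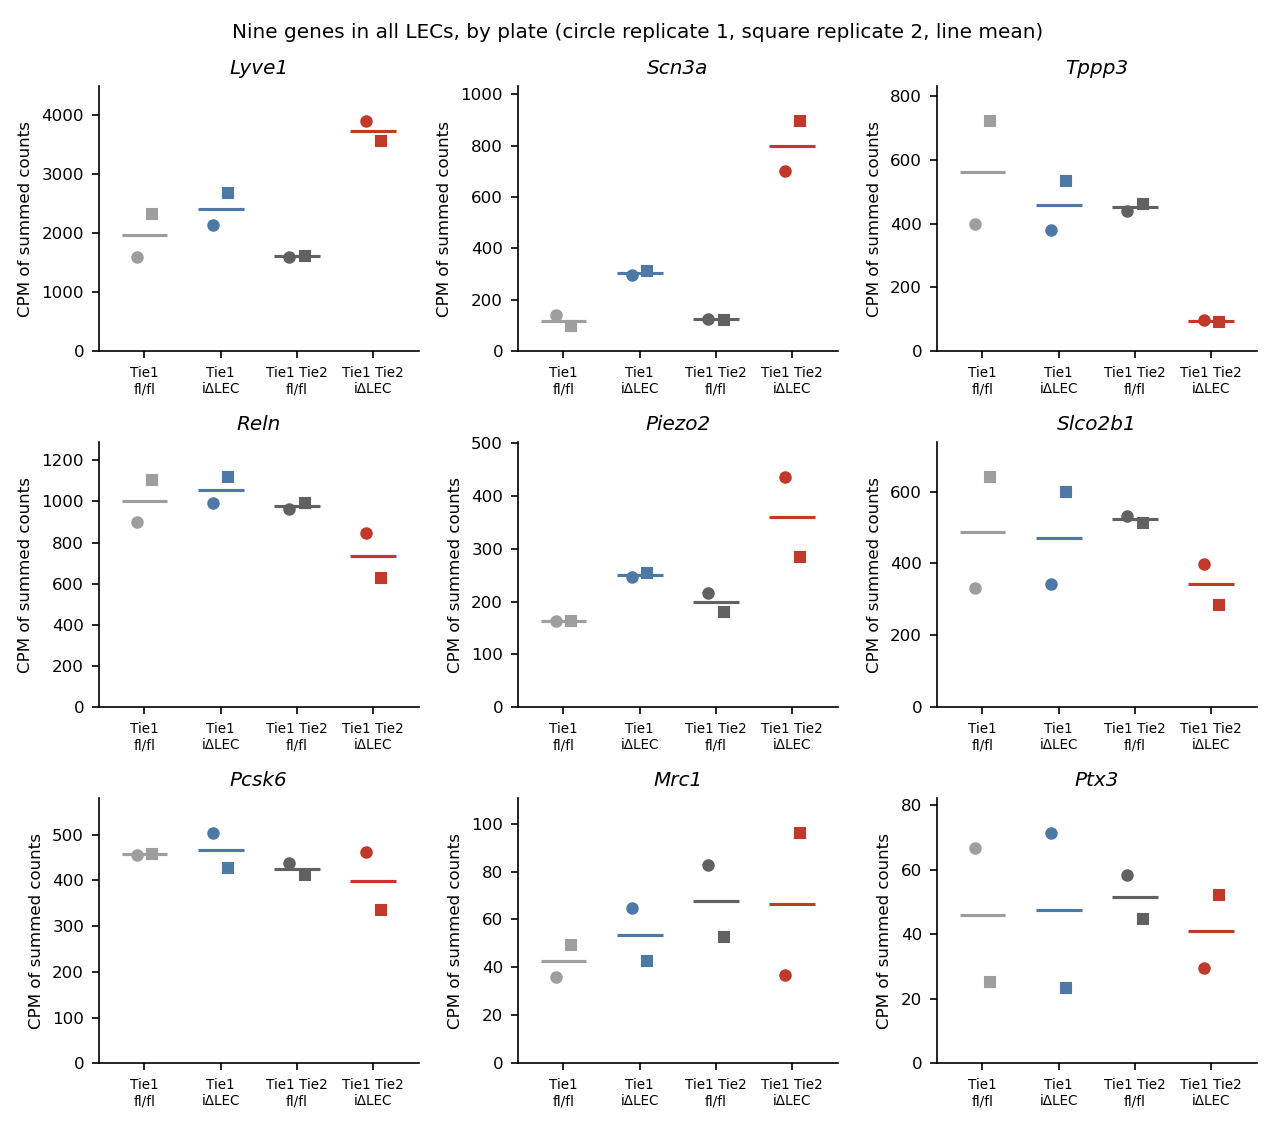
CPM of summed counts (TMM-scaled, linear axis from 0) of each of the 9 genes in all LECs, by group, with a circle for replicate 1, a square for replicate 2 and a line at the group mean. Lyve1 and Scn3a in the Tie1 Tie2iΔLEC plates sit above all other plates, and Tppp3 sits below them at 99.0 and 90.9 CPM.

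After Tie1 deletion alone, the differences were smaller. Scn3a was 141 and 98.0 CPM in Tie1fl/fl and 296 and 314 CPM in Tie1iΔLEC plates, 2.55-fold higher (log2 1.35, SE 0.24). Lyve1 was 1595 and 2331 CPM in Tie1fl/fl and 2134 and 2673 CPM in Tie1iΔLEC plates (log2 0.29, SE 0.21), so the groups overlapped, although it was higher in Tie1iΔLEC within each replicate number. None of the 7 tested genes passed, and 0% of the 19903 genes did with edgeR, where 848 had an unadjusted p under 0.05 and DESeq2 called 178. Piezo2 had the smallest unadjusted p of the 7, 0.0346, at 163 and 163 CPM in Tie1fl/fl and 246 and 255 CPM in Tie1iΔLEC plates (log2 0.62, SE 0.25, adjusted p = 1.0). Tppp3 was 399 and 723 CPM against 381 and 533 CPM (log2 -0.29, SE 0.30), with overlapping groups.

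The difference between the deletions asks whether losing Tie2 as well as Tie1 changed a gene further. It compares separate strains, each against its own Cre- plates, so strain and labelled sex cannot be told apart from the loss of Tie2. This difference was 0.92 (SE 0.30) on the log2 scale for Lyve1 and 1.34 (SE 0.33) for Scn3a. None of the 7 tested genes passed this test with edgeR, beside 0.136% of all genes, where 1476 had an unadjusted p under 0.05 and DESeq2 called 447. Tppp3 had the largest difference, -1.95 (SE 0.43, adjusted p = 0.228), and passed with DESeq2 (adjusted p = 0.0085) and with no filter on low counts (adjusted p = 0.00034). Averaged over both deletions, Tppp3 fell by 1.27 (SE 0.21) on the log2 scale (adjusted p = 0.0389, edgeR), while 0.985% of all genes passed. This call was lost in 7 of the 8 fits that left out 1 plate, all but the fit without Tie1fl/fl replicate 1, with adjusted p up to 0.163 without Tie1iΔLEC replicate 1.

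The rise of Lyve1 with Tie1/-2 deletion reached LECs outside the capillary-like class. In those LECs Lyve1 was 502 and 860.5 CPM in Tie1fl/fl,Tie2fl/fl and 3021 and 2596 CPM in Tie1 Tie2iΔLEC plates, 4.12-fold higher (log2 2.04, SE 0.28, between 1.68 and 2.49 without any 1 plate), while capillary-like LECs of the Cre- plates of that strain held 2465 and 2213 CPM (each class scaled on its own). Scn3a was 134 and 127 CPM against 555 and 808 CPM (log2 2.38, SE 0.34). Sums over wells cannot tell a change in the mix of cells of a type from a change in RNA per cell, and the mix of types outside the capillary-like class differed between the plates.

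Of the 7 tested genes, 0 passed in LECs outside the capillary-like class with edgeR, beside 0.648% of 17132 genes, where 1646 genes had an unadjusted p under 0.05 and DESeq2 called 747. Piezo2 was 134 and 107 CPM in Cre- and 401 and 216 CPM in Tie1 Tie2iΔLEC plates (log2 1.36, SE 0.39, adjusted p = 0.273), and Tppp3 was 220 and 293 against 43.9 and 83.9 CPM (log2 -2.0025, SE 0.45, adjusted p = 0.128). Both passed with DESeq2 (adjusted p = 0.0337 for Piezo2 and 0.0013 for Tppp3) and with no filter on low counts (0.0205 and 3.27e-06). Reln, the member closest to Lyve1 across Cre- wells, was 650 and 605 CPM against 706 and 530 CPM (log2 -0.02, SE 0.22), with overlapping groups. Slco2b1 (log2 -0.55), Pcsk6 (log2 0.13), Mrc1 (log2 -0.03) and Ptx3 (log2 -0.33) were within 2 SE of no change.

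With Tie1 deletion alone, Lyve1 outside the capillary-like class was 817 and 1034 CPM in Tie1fl/fl and 1276 and 1354 CPM in Tie1iΔLEC plates (log2 0.51, SE 0.27), with no overlap. Scn3a was 106 and 59.4 CPM against 219 and 190.1 CPM (log2 1.31, SE 0.33). Here 0% of 17132 genes passed with edgeR, 670 had an unadjusted p under 0.05 and DESeq2 called 81. The difference between the deletions in these LECs was 1.54 (SE 0.39) for Lyve1.

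In collector-like LECs, Lyve1 after Tie1/-2 deletion was above the capillary-like level of the Cre- plates. It was 251 and 763 CPM in Tie1fl/fl,Tie2fl/fl plates, from 76 and 71 wells, and 3930 and 3509 CPM in Tie1 Tie2iΔLEC plates, from 17 and 18 wells (log2 2.87, SE 0.47), while capillary-like LECs of the same Tie1 Tie2iΔLEC plates held 4291 and 3720 CPM. This value was 2.27 without Tie1fl/fl,Tie2fl/fl replicate 1 and 3.87 without replicate 2 of that group. The share of collector-like wells above 1000 CPM of Lyve1 was 6.58% and 21.1% in Tie1fl/fl,Tie2fl/fl plates and 100% in both Tie1 Tie2iΔLEC plates. In the Tie1 strain this share was 28.3% and 25.4% in Cre- and 38.8% and 41.7% in Tie1iΔLEC plates, so the groups did not overlap there either. The median collector-like well held 67.2 and 183 CPM of Lyve1 in the Tie1fl/fl,Tie2fl/fl plates and 3667 and 3804 CPM in the Tie1 Tie2iΔLEC plates.

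Scn3a in collector-like LECs was 52.4 and 30.2 CPM in Tie1fl/fl,Tie2fl/fl and 385 and 943 CPM in Tie1 Tie2iΔLEC plates (log2 4.01, SE 0.66, and 3.20 without Tie1 Tie2iΔLEC replicate 2). Tppp3 was 182 and 336 CPM against 1.03 and 154 CPM (log2 -1.73, SE 1.33), and this value was -0.77 without Tie1 Tie2iΔLEC replicate 1 and -7.98 without replicate 2 of that group. Reln was 674 and 549 against 571 and 712 CPM (log2 0.07, SE 0.26). Of the 7 tested genes, 0 passed with edgeR, beside 0.467% of 14551 genes, of which 1580 had an unadjusted p under 0.05 and DESeq2 called 837. The median over all genes in this comparison was -0.12 on the log2 scale. All 9 genes passed the filter on low counts in every class tested. The collector marker genes that helped to name this class were themselves lower in Tie1 Tie2iΔLEC plates (below), and their part in which wells fell into the class was not tested. As genes were scaled within each plate, the collector-like wells of these plates stand out from their own plate. Whether they are the same kind of cell as the collector-like wells of Cre- plates was not tested.

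In valve-like LECs Lyve1 was 431 and 489 CPM in Tie1fl/fl,Tie2fl/fl and 2380 and 1986.5 CPM in Tie1 Tie2iΔLEC plates (log2 2.25, SE 0.28). The groups did not overlap. The share of wells above 1000 CPM was 17.0% and 16.3% in Cre- and 76.1% and 72.0% in Tie1 Tie2iΔLEC plates. The class joined cluster 6 and cluster 9, and cluster 6 supplied 46 of 46 and 24 of 25 valve-like wells of the Tie1 Tie2iΔLEC plates. Within cluster 6 alone, Lyve1 was 643 and 650.2 CPM (not TMM-scaled) in Tie1fl/fl,Tie2fl/fl and 2272 and 2265 CPM in Tie1 Tie2iΔLEC plates. Scn3a, already high in valve-like LECs, was 301 and 283 CPM against 609 and 799 CPM (log2 1.27, SE 0.32). In this class 0 of the 7 tested genes passed with edgeR, beside 0.111% of 14382 genes, of which 1112 had an unadjusted p under 0.05 and DESeq2 called 466. Piezo2 was 104 and 92.6 against 371 and 143 CPM (log2 1.39, SE 0.61), and Tppp3 174 and 149 against 54.1 and 104 CPM (log2 -1.03, SE 0.42).

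**Figure D2:**
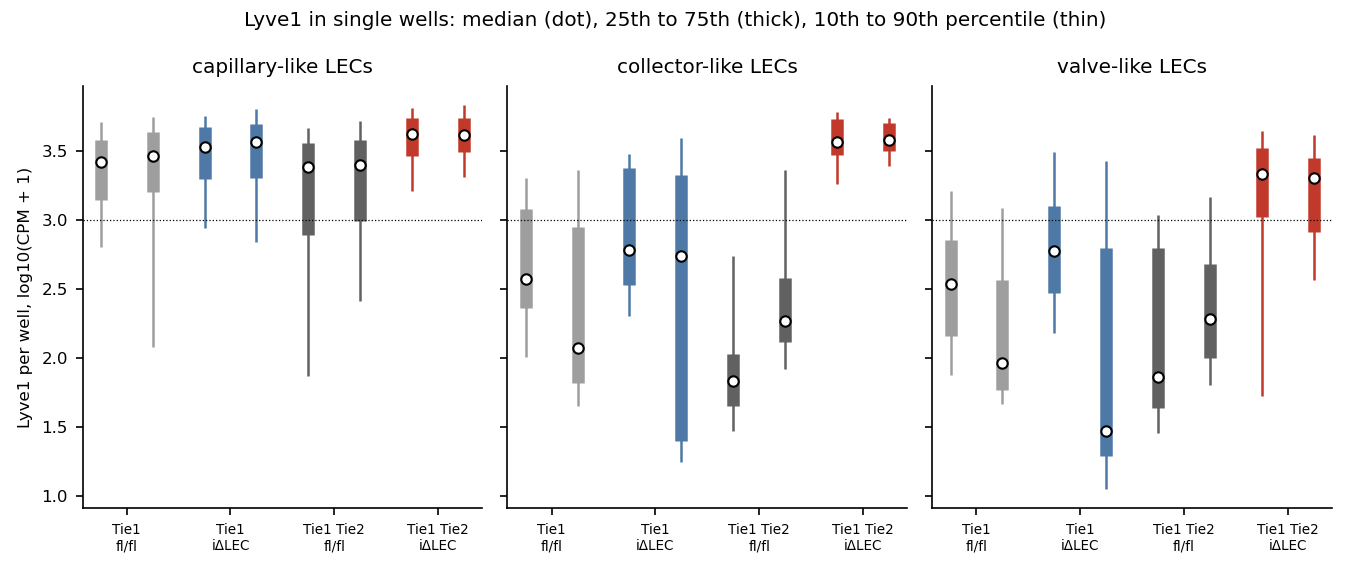
Lyve1 in single wells on a log10(CPM + 1) axis, by LEC class, group and plate (replicate 1 left, 2 right), with the median as a dot, the 25th to 75th percentile as a thick bar and the 10th to 90th as a thin line; the dotted line marks 1000 CPM. Collector-like and valve-like wells lie mostly below the dotted line except in the Tie1 Tie2iΔLEC plates, where the medians, 3667 and 3804 CPM in collector-like and 2173 and 2030 CPM in valve-like wells, lie above it.

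The capillary markers did not all follow Lyve1 outside the capillary-like class. When a well outside the capillary-like class was counted as capillary-level if it reached the 25th percentile of the Cre- capillary-like wells of its strain, the share for Lyve1 was 15.5% and 27.7% in Tie1fl/fl,Tie2fl/fl and 88.6% and 86.7% in Tie1 Tie2iΔLEC plates. For Piezo2 it was 50.7% and 58.4% against 79.5% and 78.7%, for Pcsk6 50.7% and 46.7% against 63.6% and 65.3%, and for Reln 42.3% and 37.2% against 56.8% and 48.0%. These groups did not overlap, but the share of all genes with such a gap was not counted. Summed over the same wells, Reln had overlapping groups (above). The shares for Mrc1, Ptx3 and Scn3a are not given here. For Slco2b1 the share was 37.3% and 59.9% against 37.5% and 48.0%, with overlap, and for Tppp3 it was lower, at 41.5% and 75.9% against 4.55% and 13.3%. The percentile was 834 CPM for Lyve1 in this strain but only 8.11 CPM for Piezo2, close to the level of a few reads per well, so the Piezo2 share also depends on depth. The mix of wells outside the class also changed. Collector-like wells were 76 of 142 and 71 of 137 in Tie1fl/fl,Tie2fl/fl and 17 of 88 and 18 of 75 in Tie1 Tie2iΔLEC plates. The rest included wells with proliferation or interferon-response markers, whose Lyve1 was closer to that of capillary-like LECs (above). The part of this mix in the shares was not tested.

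In capillary-like LECs, Lyve1 was 2465 and 2213 CPM in Tie1fl/fl,Tie2fl/fl and 4291 and 3720 CPM in Tie1 Tie2iΔLEC plates (log2 0.78, SE 0.20). Scn3a was 121 and 117 CPM against 765 and 890 CPM (log2 2.80, SE 0.26). Tppp3 fell from 617 and 594 CPM to 122 and 89.6 CPM, 5.71-fold (log2 -2.51, SE 0.30, adjusted p = 0.0093, edgeR), and was the only one of the 7 tested genes to pass, beside 0.72% of 18340 genes. The call was lost without Tie1fl/fl,Tie2fl/fl replicate 1 (adjusted p = 0.0608) and without Tie1 Tie2iΔLEC replicate 2 (adjusted p = 0.0552), and held without each of the other 6 plates. Tppp3 was lower in both Tie1 Tie2iΔLEC plates than in both Cre- plates in each of the 5 capillary-like clusters with values on all 8 plates. Tppp3 helped to name this class on Cre- wells, and the part of that rule in its fall was not tested.

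Reln in capillary-like LECs was 1215 and 1292 CPM in Tie1fl/fl,Tie2fl/fl and 907 and 631 CPM in Tie1 Tie2iΔLEC plates (log2 -0.71, SE 0.22, adjusted p = 0.308, edgeR). In the Tie1 strain it was 1151 and 1363 CPM in Cre- and 1339 and 1474 CPM in Tie1iΔLEC plates (log2 0.16, SE 0.22), and the difference between the deletions was -0.87 (SE 0.31, adjusted p = 0.635). Slco2b1 was 670 and 676 CPM against 442 and 314 CPM with Tie1/-2 deletion (log2 -0.83, SE 0.37, adjusted p = 0.526). With Tie1 deletion alone, Scn3a in capillary-like LECs was 173 and 119.9 CPM against 363 and 400.0 CPM (log2 1.38, SE 0.25), and Lyve1 was 2267 and 3052 against 2868 and 3591 CPM (log2 0.28, SE 0.20). In that comparison none of the 7 tested genes passed, and 0% of 18340 genes did with edgeR, with 873 at an unadjusted p under 0.05 and 165 called by DESeq2.

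**Figure D3:**
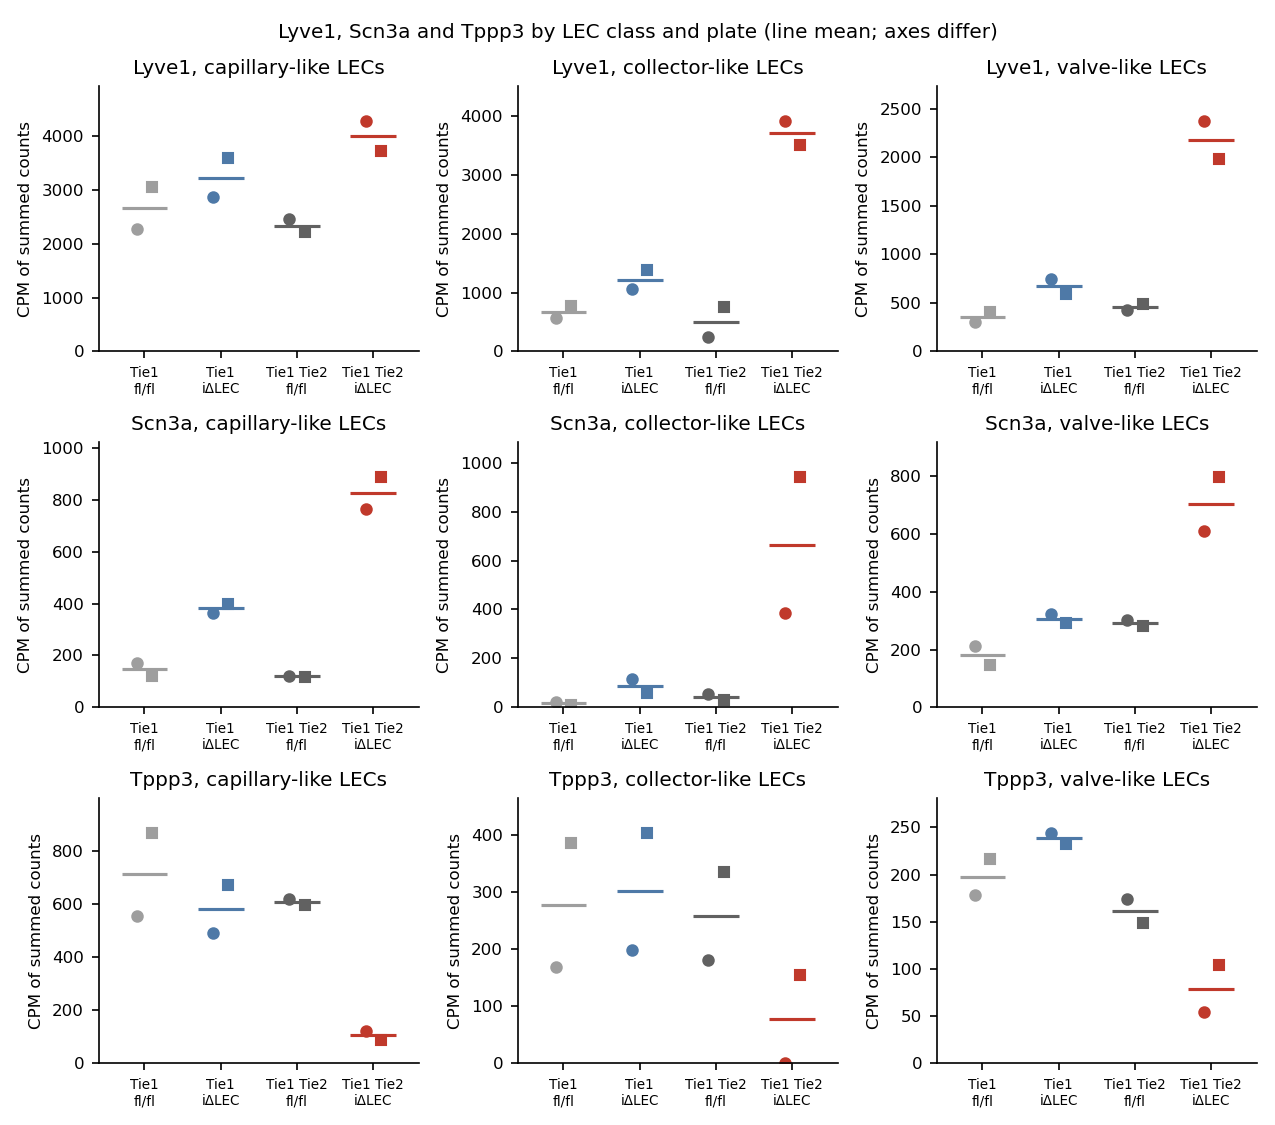
CPM of summed counts (TMM-scaled, linear axes from 0 that differ between panels) of Lyve1, Scn3a and Tppp3 in capillary-like, collector-like and valve-like LECs, with a circle for replicate 1, a square for replicate 2 and a line at the group mean. Lyve1 in collector-like LECs of the Tie1 Tie2iΔLEC plates stands at 3930 and 3509 CPM, beside 4291 and 3720 CPM in capillary-like LECs of the same plates.

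**Figure D4:**
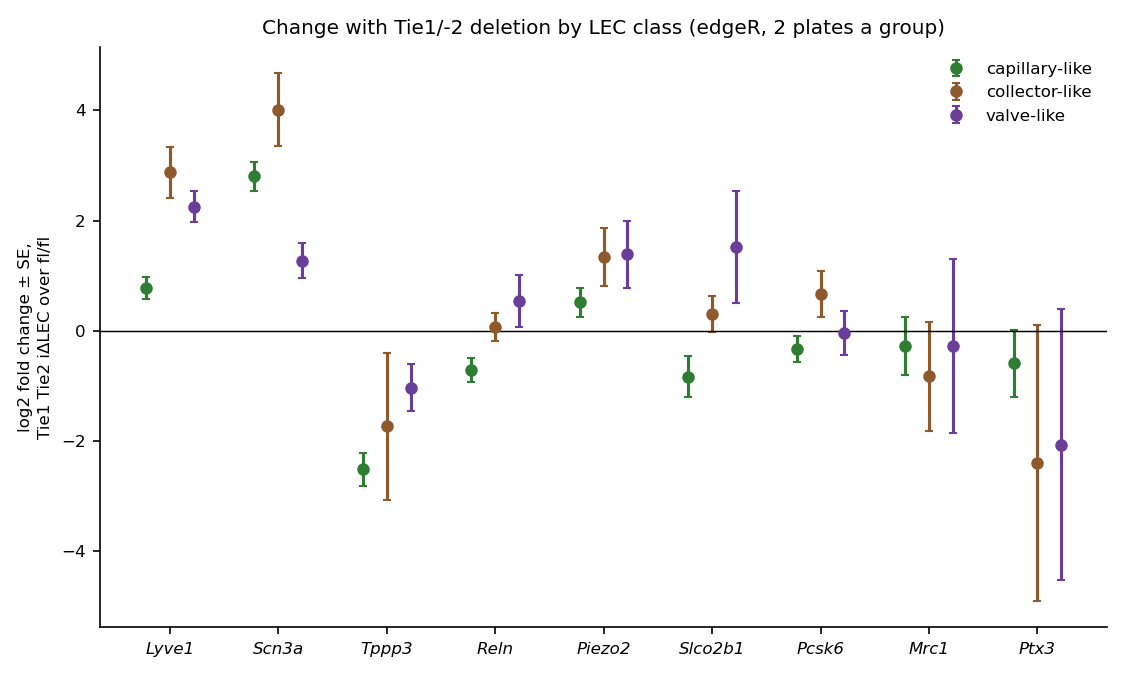
The log2 fold change of each gene in Tie1 Tie2iΔLEC over Tie1fl/fl,Tie2fl/fl plates (edgeR, point ± SE, 2 plates per group) in 3 LEC classes. Lyve1 changed by 0.78 in capillary-like, 2.87 in collector-like and 2.25 in valve-like LECs, Tppp3 lies below 0 in all 3, and Mrc1 and Ptx3 have SEs that span 0.

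The droplet libraries asked whether blocking Ang2 gave the same pattern. With 1 library per treatment there is no test, and the 95% intervals below cover counting error only. After filters, the IgG library had 1248 LECs and the Ang2 Ab library 709, with median depths of 11920.5 and 11295 unique molecular identifiers (UMIs) per cell, and 5 cell barcodes were shared between the libraries. Values are CPM of the UMIs. Over all LECs, Lyve1 was 1707 CPM with IgG and 2826 CPM with Ang2 Ab, a ratio of 1.66 (1.63 to 1.68), and Scn3a was 380 and 1293 CPM, a ratio of 3.40 (3.30 to 3.51). Tppp3 was 189 and 122 CPM, a ratio of 0.65 (0.60 to 0.69). Mrc1 had a ratio of 1.78, Piezo2 1.56, Reln 1.46, Ptx3 1.33, Slco2b1 1.30 and Pcsk6 1.21. A difference of at least 1.5-fold in either direction was seen for 5 of the 9 genes and for 4.79% of 8630 genes. Lyve1 and Scn3a, the members set aside from testing, were among them. The study reported higher Lyve1 with Ang2 Ab from the same cells. The choice of genes may therefore have raised the count of members, which is no test against the share of all genes.

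BECs, which should lack Lyve1, held 40.0 CPM with IgG and 30.4 CPM with Ang2 Ab, and 9.97% and 7.53% of 1485 and 1581 BECs had a Lyve1 UMI at median depths of 7784 and 6668 UMIs. Scn3a in BECs was 10.5 and 20.1 CPM. Tppp3, at 74.8 and 68.9 CPM, and Slco2b1, at 85.4 and 112 CPM, were higher in BECs than the other members. The 90th percentile over BECs was 212 and 224 CPM for Tppp3. For Slco2b1 it was 320 and 384 CPM, beside 272 and 297 CPM in capillary-like LECs. BEC levels of these genes are therefore given for comparison and not as a background.

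In collector-like LECs, 245 cells with IgG and 99 with Ang2 Ab, Lyve1 was 296 and 849 CPM, a ratio of 2.87 (2.62 to 3.14), and the level with Ang2 Ab remained below the 2668 CPM of capillary-like LECs with IgG. The share of cells with a Lyve1 UMI was 36.3% and 52.5%, or 28.9% and 36.3% when each cell was thinned to 5000 UMIs. Of the 2 clusters in this class, cluster 2 had 99.6 and 335 CPM and cluster 9 had 775 and 2268 CPM, so both were higher with Ang2 Ab. Scn3a was 87.3 and 523 CPM, a ratio of 5.99 (5.19 to 6.93). Tppp3 was 88.6 and 42.5 CPM, a ratio of 0.48 (0.35 to 0.65), and Slco2b1 was 27.0 and 76.7 CPM. The Slco2b1 levels and the Ang2 Ab level of Tppp3 did not exceed those of BECs, which are no background for these genes (above). Ptx3 rested on 63 and 6 UMIs, and its ratio was 0.25 (0.09 to 0.57). In this class 12.1% of 8484 genes differed by at least 1.5-fold.

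Valve-like LECs, 157 and 91 cells, did not show a higher Lyve1 level, at 252 and 266 CPM and a ratio of 1.06 (0.91 to 1.23). With a minimum of 1000 detected genes per cell, which also changed the clusters, the ratio was 2.57, and it ran from 0.98 to 1.81 under the other settings. Scn3a was 550.1 and 883 CPM, a ratio of 1.61 (1.47 to 1.76), and Tppp3 33.7 and 11.8 CPM, from 65 and 12 UMIs, with a ratio of 0.35 (0.17 to 0.65), both below the Tppp3 level of BECs. Here 12.9% of 8514 genes differed by at least 1.5-fold. In capillary-like LECs, 666 and 388 cells, Lyve1 was 2668 and 4174 CPM (ratio 1.56, 1.54 to 1.59), Scn3a 470.5 and 1698 CPM (3.61, 3.48 to 3.74) and Tppp3 264 and 169.97 CPM (0.64, 0.60 to 0.70), with 7.08% of 8503 genes at or beyond 1.5-fold. The cells of this class lay in different clusters in the libraries, with 80 IgG and 104 Ang2 Ab cells in cluster 4 and 164 and 63 cells in cluster 1. Scn3a was higher with Ang2 Ab in each of the 5 clusters of the class, from 932 and 2085 CPM in cluster 4 to 178 and 931 CPM in cluster 1. Reln was 699 and 994 CPM (1.42, 1.37 to 1.48) and Piezo2 247 and 377 CPM (1.52, 1.43 to 1.62). Over all LECs outside the capillary-like class, including 141 and 108 cells in clusters left unnamed, the ratio was 1.57 (1.503 to 1.649) for Lyve1, 2.60 (2.45 to 2.76) for Scn3a and 0.54 (0.46 to 0.64) for Tppp3, where 4.89% of 8708 genes differed by at least 1.5-fold.

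**Figure D5:**
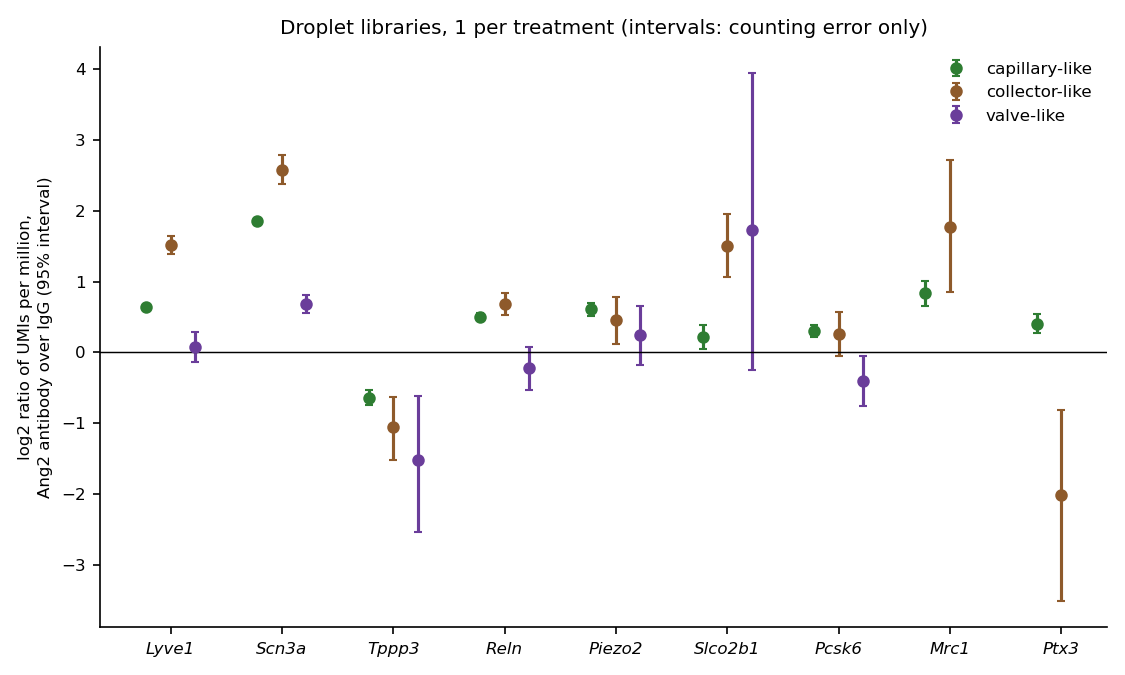
The log2 ratio of UMI CPM, Ang2 Ab over IgG, for the 9 genes in 3 LEC classes of the droplet libraries, with 95% intervals that cover counting error only; genes with 3 or fewer UMIs in a library are left out. Lyve1 has ratios of 1.56 in capillary-like, 2.87 in collector-like and 1.06 in valve-like LECs, and Scn3a lies above 0 in all 3 classes. Tppp3 lies below 0. Its collector-like level with Ang2 Ab and both valve-like levels are below those of BECs, which are no background for Tppp3.

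Other genes of lymphatic capillaries and of the members' pathways were taken from lists chosen with earlier results known. Of 17 other capillary genes, 2 rose with Tie1/-2 deletion in all LECs, 1 fell and 14 did not pass, with a median of 0.04 on the log2 scale. Of all 19903 genes, 0.306% rose and 0.894% fell in this comparison, 1.2% in all, and the counts of the lists that follow stand beside the same shares. Itih5, which encodes a hyaluronan-associated inter-alpha-trypsin inhibitor heavy chain, rose by 1.73 (SE 0.24, adjusted p = 0.0142, edgeR) and the water channel gene Aqp1 by 1.46 (SE 0.25, adjusted p = 0.0331). Nrp2, the VEGFR3 co-receptor gene, fell by 1.64 (SE 0.27, adjusted p = 0.0275). The study reported this fall of Nrp2 from the same cells, so its p-value is no independent test. With Ang2 Ab the ratios over all LECs were 2.08 for Itih5, 1.85 for Aqp1 and 0.61 for Nrp2.

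Of the 16 genes for making, breaking down and binding hyaluronan, the ligand of LYVE1, 13 were tested and 1 rose, which was Itih5 again. The scavenger receptor gene Stab2 had a log2 fold change of 2.62 (SE 0.89, adjusted p = 0.332). Of 8 genes of reelin signalling, 1 passed, Dab2, an endocytic adaptor that fell by 2.42 (SE 0.28, adjusted p = 0.0058, edgeR), and its ratio with Ang2 Ab was 0.55. Dab2 was a top gene of collector-like cluster 9 of the droplet libraries, and collector-like wells were fewer after the deletion (below). The part of that shift in the fall of Dab2 was not tested. The reelin receptor gene Vldlr had a log2 fold change of -1.60 (SE 0.33, adjusted p = 0.0768). Of 10 genes for the other Piezo channel and for sodium channel subunits, 8 were tested and 0 passed with edgeR, with 1 at an unadjusted p under 0.05. The largest differences, both in genes with very few counts, were -2.08 (SE 2.12) for Scn7a and 1.87 (SE 1.2008) for Scn9a.

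Collector markers were among the genes that fell. Of the 7 genes that named collector LECs, 4 fell in all LECs with Tie1/-2 deletion and 0 rose, beside 0.894% of all genes that fell. Wells called collector-like made up 22.9% and 21.01% of the LECs in Tie1fl/fl,Tie2fl/fl and 4.70% and 5.06% in Tie1 Tie2iΔLEC plates. The clusters rest on such genes, so fewer collector cells and less of these transcripts per cell cannot be told apart. Ccdc3 fell by 4.52 (SE 0.48, adjusted p = 0.0042, edgeR), Mmrn2 fell by 3.9 (SE 0.41, adjusted p = 0.0041), Procr by 2.02 (SE 0.28, adjusted p = 0.0128) and the transglutaminase gene Tgm2 by 1.83 (SE 0.25, adjusted p = 0.0116). With Ang2 Ab, 6 of these 7 genes were at least 1.5-fold lower over all LECs, beside 200 of 8630 genes, and collector-like cells were 19.6% of LECs with IgG and 14.0% with Ang2 Ab. The study used these genes to describe the collector cluster of the same cells, and they named the class here. Of 5 valve markers, 1 fell, Cldn11 by 2.54 (SE 0.20, adjusted p = 0.0013). The study reported lower Cldn11 from the same cells, so this p-value is no independent test either.

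Macrophages also carry LYVE1 and MRC1, and the sort removed CD45+ cells. The 9 macrophage markers summed to between 9.05 and 27.0 CPM in the LECs of each plate, of which Ptprc, which encodes CD45, was at most 0.116 CPM, and they were 14.7 and 9.05 CPM in Tie1fl/fl,Tie2fl/fl and 13.3 and 14.7 CPM in Tie1 Tie2iΔLEC plates. The 8 BEC markers summed to 1513 and 1693 CPM in Tie1fl/fl,Tie2fl/fl and 2651 and 2193 CPM in Tie1 Tie2iΔLEC plates, and 2 of the 8 rose, Aqp1 and Cd34 (log2 2.78, SE 0.51, adjusted p = 0.0486, edgeR). Aqp1 was also one of the other capillary genes above. The number of BEC markers above 1 CPM went the other way, with 8 and 8 in Tie1fl/fl,Tie2fl/fl and 5 and 6 in Tie1 Tie2iΔLEC plates. Whether the share of BECs in these wells differed between the groups was not tested. Fibroblast markers summed to 233 and 42.1 CPM in Tie1fl/fl,Tie2fl/fl and 19.3 and 42.4 CPM in Tie1 Tie2iΔLEC plates. The part of these cells in the Lyve1 difference was not tested, and Lyve1 in BECs of the droplet libraries was 40.0 and 30.4 CPM.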

How the data were processed

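Smart-seq and 10x libraries of mouse ear skin endothelial cells were analysed from the authors' files. The plate tables and droplet matrices that the authors deposited hold raw counts, of reads per gene and well and of UMIs per gene and cell. The submitters' processing notes name TopHat2 2.1.1, SAMtools 0.1.18, featureCounts, Cell Ranger 2.1.1, GRCm38 and mm10. Reads without molecular identifiers are not independent molecules. Strand use in counting is not given in the sources used here.

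The 9 genes and all lists were chosen with earlier results of these data known. Plate tables were joined by gene symbol, older symbols included, and kept 95.8% to 97.1% of counts; 92 spike-in rows on 4 plates stayed out. Median counts per well ran from 148426 to 267572. Wells with at least 1000 genes and cells with at least 500 genes and at most 10% mitochondrial UMIs were clustered (scanpy 1.11.5, 2000 variable genes, 30 components, 15 neighbours, resolution 1.0) without the 9 genes, Tie1 and Tek. A cluster was named when at least 3 markers of a type were raised at least 1.5-fold in Cre- wells (IgG cells for droplets), a rule set on these data. The capillary-like name was given last, to clusters still unnamed, by comparison with collector-like and valve-like wells. Droplet clusters were taken as LECs when at least 80% of their cells held a Prox1 UMI, and these cells were clustered again. Before clustering, each gene was scaled to the mean and SD of its plate or droplet library, so classes are relative to the plate or treatment. No doublets were removed, and taking out the top 5% of doublet scores was an alternative.

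Counts summed per plate and class (at least 10 wells) were fitted in 1 edgeR 4.0.16 model over 8 plates (R 4.3.3, TMM scaling, low counts removed by filterByExpr, the quasi-likelihood test and Benjamini-Hochberg correction over all genes tested, threshold 0.05), checked on simulated data. An exact permutation test of 2 against 2 plates cannot go below 0.333. Named genes were the 9 genes, the 10 closest to Lyve1, and list members that passed or else the 2 with the largest change. Pairing by replicate number in the Tie1 strain, layout as a term, DESeq2 1.42.0, limma 3.58.1, other scalings, filters, cluster settings and each plate left out were alternatives. Ratios of UMIs carry exact binomial intervals. Protein sequences were not analysed here.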

Additional observations from a re-analysis of the deposited data

Results flagged for a closer look

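Among 27 levels checked over the 4 Cre- plates (9 genes in 3 LEC classes), 2 had 1 plate far from the other 3, and about 5% of groups are picked out by chance. Scn3a in capillary-like LECs was 183 CPM in Tie1fl/fl replicate 1, against 113, 120 and 119 CPM on the other Cre- plates. Tppp3 in capillary-like LECs was 821 CPM in Tie1fl/fl replicate 2, against 589, 609 and 609 CPM. Neither plate enters the Tie1/-2 deletion comparison except through the shared estimate of spread.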

How the results depend on the processing

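The number of the 7 tested genes that passed moved under some alternatives. For the difference between deletions it went from 0 to 1 with DESeq2 and to 1 with no filter, for the average of both deletions from 1 to 2 with DESeq2 and to 2 with no filter, and to 0 with limma on mean log2(CPM + 1) over wells. With Tie1/-2 deletion in LECs outside the capillary-like class it went from 0 to 2 with DESeq2 and to 2 with no filter, and in collector-like LECs from 0 to 1 with no filter. The causes were not tested. With 1 plate left out it ran from 0 to 1 for Tie1/-2 deletion in all, capillary-like and collector-like LECs and for the average. The 1 in collector-like LECs, which was Tppp3, came without Tie1 Tie2iΔLEC replicate 2.

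In the fits behind the Tppp3 call, Tie1/-2 deletion in all LECs gave 239 calls over all genes, against 228 with RLE size factors, 1206 with no filter, 1036 with DESeq2, 24 with limma and 92 to 226 with 1 plate left out. For each gene, the difference between replicates 1 and 2 was taken in the Cre- plates and in the deletion plates of a strain. Across 19903 genes these differences correlated at 0.11 in the Tie1 strain and 0.092 in the Tie1 Tie2 strain. Each strain has 2 pairs, which is too few to show that the numbers pair the plates. Plates with the same number in a strain share a table layout and, in the Tie1 strain, the labelled sex. A replicate block was fitted for the plates of the Tie1 strain only. The Tie1 Tie2 strain was not paired, so the block reached Tie1/-2 deletion only through the shared estimate of spread. With this block there were 215 calls over all genes for Tie1/-2 deletion in all LECs. The number of the 7 genes that passed stayed at 1 there, and at 0, 0 and 1 for Tie1 deletion, the difference and the average. The block lowered the calls over all genes from 16 to 9 in valve-like and from 68 to 44 in collector-like LECs.

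Values that changed direction were Tppp3 in capillary-like LECs with Tie1 deletion (log2 between -0.56 and 0.074 with 1 plate left out), Reln and Slco2b1 in valve-like LECs with Tie1/-2 deletion (-0.094 to 0.9985 and -0.021 to 2.29) and the droplet ratio of Pcsk6 in valve-like LECs, 1.13 with at least 1000 genes per cell. A further 76 of 1494 refitted plate values, all uncalled and within 1 SE of 0, also changed sign. Of the droplet values under other settings, 63 were labelled as moved, 112 as the same and 1 as reversed. The counting intervals of the droplet ratios do not cover such shifts. Collector-like values in Tie1 Tie2iΔLEC plates rest on 17 and 18 wells. These counts were 11 and 11 at resolution 0.5, 25 and 30 at resolution 2.0, and 20 and 27 with the 9 genes kept in the clustering. Valve-like wells on these plates were 46 and 25, against 38 and 22, 34 and 21, and 68 and 51 in the same order of settings.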
